A study of Danio rerio with 9 samples.

Results

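The 100 megabase windows with the fewest accessible sites inside the chromosomes of zebrafish (Danio rerio) spermatozoa were described from peak lists of ATAC-seq, an assay that marks open DNA by the places where the transposase Tn5 can put sequencing adapters. The lists came from 5 libraries of injured males, sampled 7 days after part of the heart had been frozen (cryoinjury), and from 4 libraries of uninjured control males. Each library had been made from 100000 spermatozoa, and the labels give the fish as adults and name no strain, exact age, transgene or batch. They do not say whether a library came from 1 male, so each p-value reflects no more than how much these libraries vary, and part of that variation may be technical.

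The windows were found on chromosomes 1 to 25 without chromosome 4. Each peak was assigned by its midpoint to a window of 1 Mb, the first and the last window of each chromosome were dropped, and the 100 windows with the lowest number of peaks summed over the 9 lists were taken from the 1234 that remained. They held 3155 of the 253847 peaks of the series. Merging peaks that overlapped by at least 1 bp across libraries gave 1631 regions in these windows, of 126838 regions in all. Since the number of peaks chose the windows, that number and what follows from it are given as a description. Where counts of windows or regions past a threshold are quoted from a comparison of the groups over the whole series, nothing is read from them about the windows.

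Zebrafish sperm is known to keep its DNA on nucleosomes in place of protamines. Along vertebrate chromosomes stretches dense and sparse in open chromatin alternate on the scale of megabases, and open sites are in general denser where genes are denser. Gene positions and sequence in the build of the lists, GRCz11, were not used here, so neither genes nor sequence are given for any window. The number of reads behind each list is unknown, and gaps in the assembly, which all libraries share, were not examined. The lack of a peak therefore means that none was detected and does not show closed chromatin. The labels give 4.6 to 29 M reads retained per library without tying a value to a library. Lists had 15508 to 29622 peaks in injured and 30126 to 45277 in control libraries, without overlap, and the part of depth in their length was not tested.

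The chosen windows held between 11 and 42 peaks summed over the 9 libraries, with a median of 34, whereas the median of the other 1134 interior windows was 120 and their highest sum 787. The threshold fell within a tie. The last 2 windows inside (chromosome 6, 25 to 26 Mb and 29 to 30 Mb) and the first 2 outside (chromosome 6, 32 to 33 Mb, and chromosome 11, 13 to 14 Mb) each had 42 peaks, and 7 windows with that sum were left outside by the order of chromosome and start.

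**Figure D1:**
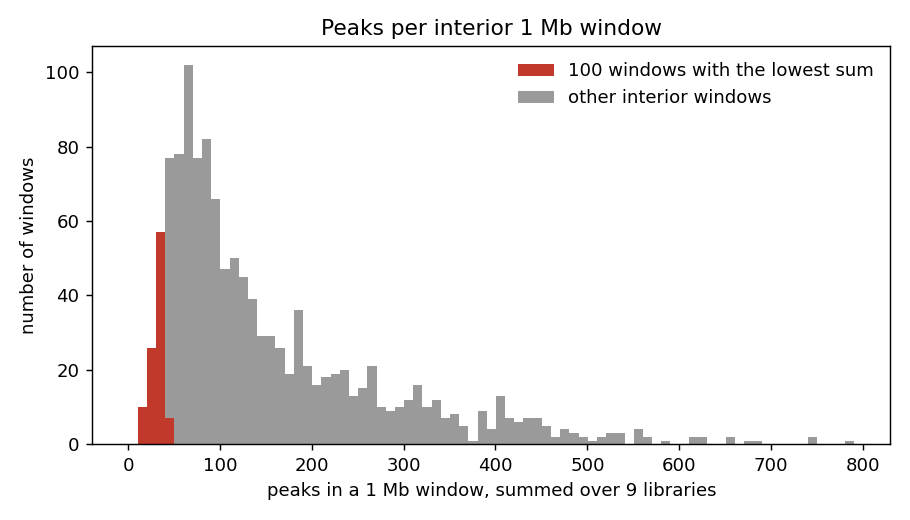
Number of interior windows of 1 Mb by the number of peaks summed over the 9 libraries, with the 100 windows of the lowest sum in red and the other 1134 in grey. The red windows form the left shoulder of a single skewed distribution, from 11 to 42 peaks, with no gap between them and the rest.

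The emptiest window lay at 8 to 9 Mb of chromosome 23. It had 1, 0, 0, 2 and 1 peaks in injured libraries 1 to 5 and 1, 1, 1 and 4 in control libraries 1 to 4. Most libraries therefore had at most 1 site in a whole megabase. The window at 22 to 23 Mb of chromosome 24 also summed to 11 peaks, with 1, 1, 1, 2 and 1 in the injured and 0, 0, 1 and 4 in the control libraries. Its neighbour at 23 to 24 Mb had 2, 2, 1, 2 and 5 peaks in the injured and 0, 1, 0 and 1 in the control libraries. Those are the only pair among the 10 emptiest windows that adjoin each other.

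Next came 16 to 17 Mb of chromosome 1 and 54 to 55 Mb of chromosome 3, with 13 peaks each. The first had 2, 1, 2, 1 and 0 peaks in injured and 1, 2, 0 and 4 in control libraries. The second had 2, 2, 0, 2 and 0 peaks in injured and 1, 2, 2 and 2 in control libraries. Control library 4, which has the longest list, did not lead in this window. The remaining windows among the 10 emptiest lay on chromosomes 19 (32 to 33 Mb), 17 (25 to 26 Mb), 12 (38 to 39 Mb) and 5 (48 to 49 Mb and 51 to 52 Mb) and had 16 to 20 peaks. None of the 10 held a region detected in more than 5 libraries. The region of 5 libraries lay in the window of chromosome 1.

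A library's own count was low in nearly every chosen window. Per Mb, the windows held 3.67, 2.99, 1.33, 3.15 and 2.21 peaks in injured libraries 1 to 5 and 3.05, 4.26, 4.38 and 6.51 in control libraries 1 to 4. The other interior windows held 19.5, 17.0, 10.2, 15.2 and 11.4 peaks per Mb in the injured and 21.1, 22.3, 19.7 and 29.6 in the control libraries. The ratio of the windows to the other interior windows was 0.179 ± 0.0294 for the injured group (SD, n = 5) and 0.194 ± 0.0362 for the control group (SD, n = 4).

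The choice used every list, so the windows were also chosen from 8 lists and measured in the ninth, which the choice had not used. Between 92 and 97 of the 100 windows were then the same as before. In the list left out the chosen windows held 1.39 to 6.96 peaks per Mb and the other interior windows 10.2 to 29.6, a ratio of 0.201 ± 0.0357 (SD, n = 9) with a range of 0.137 to 0.241. A library that had no part in the choice was thus also sparse there, in 9 of 9 cases. Over all 1234 interior windows the peak counts of 2 libraries ran in similar order, with Spearman's rho of 0.756 to 0.889 over the 36 pairs, given as a description of windows that share the same chromosomes.

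**Figure D2:**
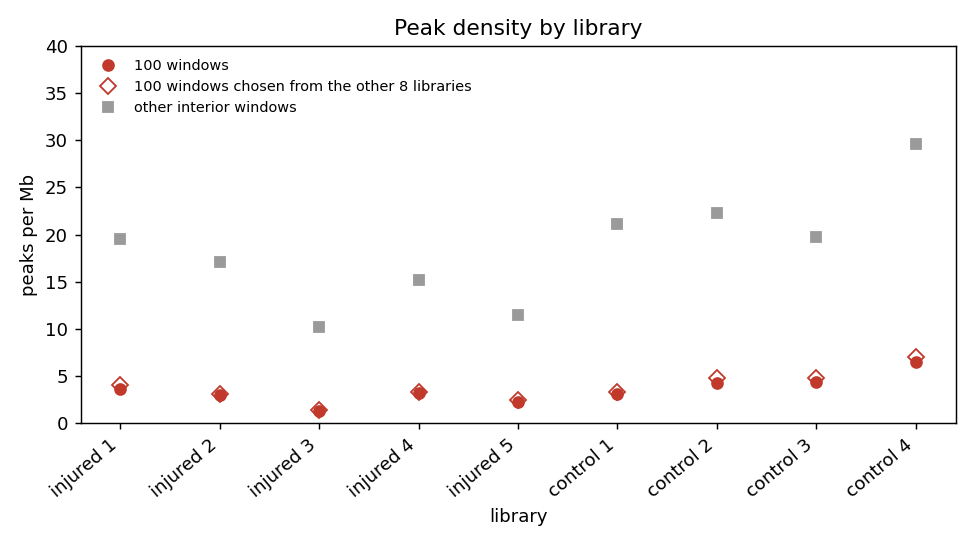
Peaks per Mb in each of the 5 injured and 4 control libraries for the 100 windows (red dots), for 100 windows chosen from the other 8 libraries (open diamonds) and for the other interior windows (grey squares). In each library the red dots and diamonds lie close together, at most 6.96 peaks per Mb, and below the grey squares, which start at 10.2.

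In 67 of the 100 windows every library had a peak, and in 33 at least 1 library had 0 peaks, against 1.76% of the other interior windows. Injured libraries 1 to 5 had 0 peaks in 2, 5, 22, 2 and 11 of the windows, and control libraries 1 to 4 in 4, 1, 2 and 0. Injured library 3, the shortest list, accounts for the most, and control library 4, the longest, for 0. In control library 3 all 100 windows lay in the lower 25% of interior windows by its own count. The number was 96, 90, 89, 96 and 94 in injured libraries 1 to 5 and 99, 96 and 98 in control libraries 1, 2 and 4.

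The windows were spread over 21 of the 24 chromosomes. Chromosome 24 had the highest share, with 9 of its 41 interior windows (21.95%), followed by chromosome 9 with 11 of 55 and chromosome 18 with 8 of 50 (16%). Chromosomes 15, 20 and 22 had 0 of 47, 54 and 38 interior windows. Chromosome 9 had the lowest overall density of the 24 chromosomes, at 10.7 peaks per Mb per library over its interior windows, whereas chromosome 24, at 17.6, did not stand out by its density. Chromosome 22, at 13.7, was sparser than chromosome 24 and had no chosen window.

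Most of the windows stood alone. They formed 67 single windows and 14 runs, 11 runs of 2 windows, 1 of 3 and 2 of 4, so that 33 of the 100 windows had a chosen neighbour. The share of all interior windows that were chosen was 8.1%. That share counts single windows, whereas a neighbour can lie on either side, so it is not a like baseline for the 33. They lay more toward the middle of chromosomes, with a median distance from the nearer end of 0.646 (quartiles 0.438 and 0.835), against 0.478 (quartiles 0.222 and 0.737) for the other interior windows, on a scale from 0 for the outermost interior window to 1 for the middle.

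The run on chromosome 24 from 22 to 26 Mb was the sparsest of the 3 runs of at least 3 windows. Over its 4 windows it held 16, 7, 5, 10 and 11 peaks in injured libraries 1 to 5 and 5, 10, 9 and 16 in control libraries 1 to 4, a mean of 2.47 peaks per Mb per library. The groups overlapped fully. Its 89 peaks formed 41 regions, of which 24 were detected in 1 library and 3 in at least 7. Even this run thus held 3 sites found in most libraries.

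The run on chromosome 23 from 7 to 10 Mb held 14, 9, 2, 6 and 7 peaks in injured and 8, 9, 8 and 19 in control libraries over 3 windows. Its 82 peaks formed 39 regions, 21 detected in 1 library and 2 in at least 7. On chromosome 1 from 5 to 9 Mb the 4 windows held 19, 7, 7, 9 and 10 peaks in injured and 13, 16, 24 and 30 in control libraries. That run had 68 regions, 46 of them in 1 library and 3 in at least 7. It was therefore less sparse than the run on chromosome 24 of equal length. By count only injured library 1 reached into the range of the control libraries, but control lists are also longer, and shares were not compared for runs.

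Windows up to 4 windows away from a chosen one had lower medians than all other interior windows together (120). Windows directly beside a chosen window had a median of 77.5 peaks summed over the libraries (150 windows), those 4 windows away 96.5 (66 windows), and those 9 or more away 191 (405 windows). At 5, 6 and 7 windows away the medians were 127, 128 and 119. Interior windows on the 3 chromosomes without a chosen window had a median of 122. Chromosomes differ in density and in their number of chosen windows, and the chosen windows lie more toward the middle. Distance was not separated from chromosome or position. The windows beside the 3 long runs were low as well. On chromosome 1 those before and after the run had 44 and 63 peaks, on chromosome 23 they had 81 and 77, and on chromosome 24 they had 47 and 61. The windows next to a chosen one are above the threshold by construction, so their distance from the chosen windows themselves is not a result.

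**Figure D3:**
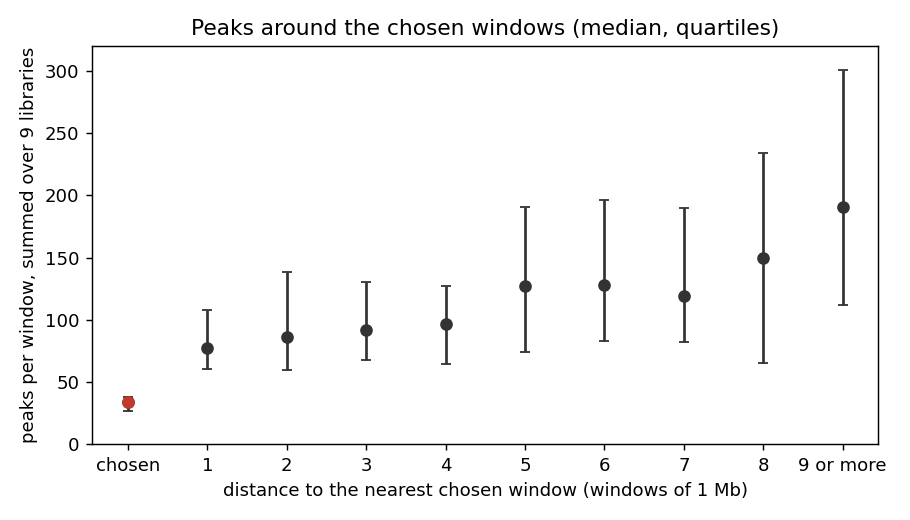
Peaks per 1 Mb window summed over the 9 libraries (dots, median; bars, lower and upper quartile) by distance to the nearest chosen window on the same chromosome, with the chosen windows in red. The median is 77.5 directly beside a chosen window and 191 at 9 or more windows away, with a dip to 119 at 7 windows, and the bars of neighbouring distances overlap.

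By detection in at least 2 libraries, the few peaks in the windows recurred about as often as peaks elsewhere. Of the 1631 regions, 38.7% were detected in at least 2 libraries, against 36.8% of the other 99227 regions on the same chromosomes, although regions lay at 16.3 per Mb in the windows and at 84.8 per Mb in the other interior windows. The share detected in 1 library was 61.3% in the windows and 63.2% elsewhere. At the other end, 15 regions (0.92%) were detected in all 9 libraries, against 1.32% elsewhere. A region of 9 libraries adds at least 9 peaks to the sum by which windows were chosen, so these shares are linked to the choice and were not tested.

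Per library, the share of the peaks in the windows that lay in a region also detected in another library was 63.2%, 75.3%, 86.5%, 72.4% and 64.3% in injured libraries 1 to 5. In control libraries 1 to 4 it was 67.9%, 70.2%, 66.2% and 64.1%. For peaks outside the windows the shares were 65.2%, 71.6%, 76.4%, 72.8% and 72.5% in injured and 66.1%, 66.2%, 66.5% and 63.7% in control libraries. The difference between windows and rest went both ways, from -8.28 percentage points in injured library 5 to 10.1 in injured library 3. The share in regions of all 9 libraries was lower in the windows in each library, with 5.28% ± 2.65 against 7.41% ± 2.46 elsewhere (SD, n = 9 each). That share is linked to the choice and was not tested. Injured library 3 had only 133 peaks in the windows, of which 18 were found in it alone, whereas control library 4 had 651, of which 234 were found in it alone.

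**Figure D4:**
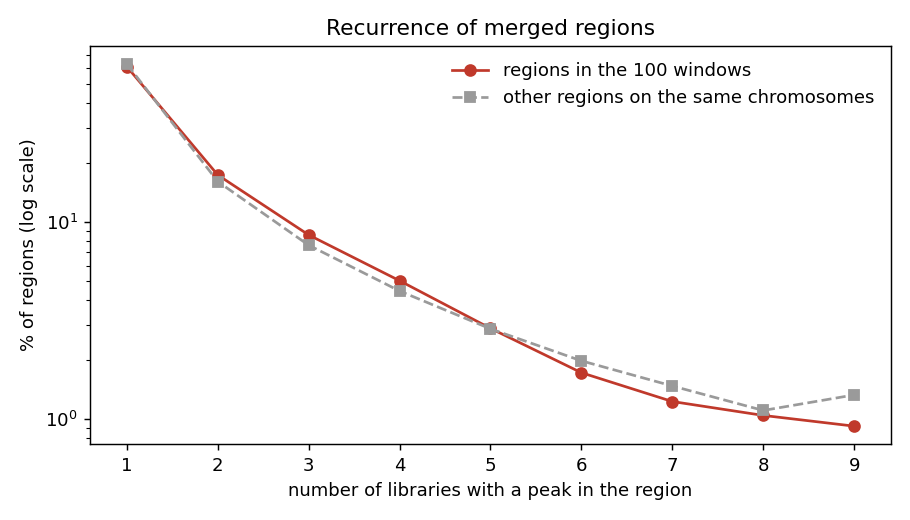
Percentage of merged regions (log scale) by the number of libraries with a peak in them, for the 1631 regions of the windows (red) and the other 99227 regions on the same chromosomes (grey). Both curves fall up to 8 libraries, and at 9 the grey one turns up to 1.32% while the red one falls on to 0.92%; the red one is slightly higher at 2 to 4 libraries and lower at 6 to 9.

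Sites detected in all 9 libraries were found in 13 of the windows, and 87 windows had none. The most recurrent region of a window was detected in at least 7 libraries in 40 windows and in at most 5 in 44. The 2 regions with the best ranks lay side by side in the window at 30 to 31 Mb of chromosome 16, with 12.5 kb between them. Together they gave 20 of the 33 peaks of that window (60.6%), so most of its peaks lay at these sites.

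Ranks are given below as percentiles of the peak score within a library's list, with 100 for the best. A library's value for a region is that of its best peak there. The median percentile of a region is taken over all its peaks. The region of chromosome 16 from 30343376 to 30344152 reached percentiles of 99.4, 97.9, 98.2, 99.3 and 98.6 in injured libraries 1 to 5. In control libraries 1 to 4 it reached 99.5, 99.1, 99.4 and 99.5. It was among the best 3% of peaks in every library, with peaks 562 to 777 bp wide. Its neighbour from 30329625 to 30330874 reached percentiles of 98.1, 96.9, 13.99, 97.9 and 95.8 in injured and 98.4, 98.8, 98.2 and 98.96 in control libraries. Injured library 3, with a peak of 208 bp there, stood far below the others, while injured libraries 2 and 5 had 2 separate peaks in the region.

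Next by median rank was a region of chromosome 18 from 11073072 to 11073492. It had percentiles of 97.5, 94.9, 89.2, 97.1 and 80.6 in injured and 96.4, 98.5, 96.3 and 98.8 in control libraries. The window around it, 11 to 12 Mb, held a further region of 9 libraries, at 11773421 to 11773823, and both together gave 18 of its 40 peaks (45%). A region of chromosome 9 from 28525457 to 28526024 had percentiles of 92.3, 96.5, 87.7, 90.2 and 50.5 in injured and 88.2, 94.8, 97.1 and 97.0 in control libraries. In both regions the lowest value belonged to injured library 5.

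Within the run on chromosome 1, the region from 8568380 to 8569097 had percentiles of 89.3, 84.8, 73.3, 53.3 and 77.9 in injured and 93.4, 91.3, 94.6 and 93.8 in control libraries. Every control value lay above every injured value. This was noticed after the values were seen, among the 8 best-ranked regions of 9 libraries, and a percentile depends on the length of the list, so no test was made. The others named by rank lay on chromosomes 9 (21275794 to 21276238), 21 (38059773 to 38060245) and 1 (15928572 to 15929197), with median percentiles of 87.8, 87.7 and 86.1. Over the 15 regions of 9 libraries median percentiles ran from 64.3 to 99.3.

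Regions missing from a single library were most often missing from injured library 3, the shortest list. Of the 17 regions detected in 8 libraries, 7 lacked a peak in injured library 3, 4 in injured library 4, and 2 each in injured libraries 2 and 5 and control library 1. None lacked one in injured library 1 or in control library 2, 3 or 4. Among the 1096 such regions elsewhere, 31.2% were missing from injured library 3 and 1.82% from control library 4.

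The widest region, on chromosome 1 from 15640087 to 15641750, spanned 1664 bp and was merged from 7 peaks of 3 injured and 3 control libraries. In the libraries with 1 peak there, the peak was 163 to 547 bp wide, so the width came from the merging. The others lay on chromosomes 24 (25825458 to 25826998, 9 libraries), 7 (46849259 to 46850785, 5 libraries), 23 (9645187 to 9646616, 6 libraries) and 9 (25069922 to 25071195, 3 libraries). In the last of these 1 peak of injured library 2 was itself 1233 bp wide, and in that of chromosome 23 a peak of control library 4 was 1252 bp wide. No peak in the windows was wider than 1252 bp, and 0 to 6 peaks per library were wider than 1 kb. That was 0.357% ± 0.339 of the peaks in the windows (SD, n = 9), against 0.917% ± 0.131 elsewhere (SD, n = 9).

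Peaks in the windows were slightly narrower than the other peaks of the same library. Median widths in the windows were 180, 259, 277, 217 and 228 bp in injured libraries 1 to 5 and 209, 237, 204 and 235 bp in control libraries 1 to 4. Elsewhere on the same chromosomes they were 190, 278, 278, 241 and 229 bp in injured and 212, 251, 206 and 242 bp in control libraries. The peaks in the windows were narrower in 9 of 9 libraries, by 1 to 24 bp and by 9 ± 8.43 bp on average (SD, n = 9; exact two-sided sign-flip permutation p = 0.00391, the smallest that 9 libraries can give, adjusted p = 0.00781 over the 2 measures tested). With windows chosen from the other 8 libraries the difference was -8 bp (exact permutation p = 0.0156), and for the 50 sparsest windows alone it was -4 bp (exact permutation p = 0.223). Lists cut to equal length keep as many top-scoring peaks in each library as the shortest list holds (15508). They gave -21.1 ± 20.3 bp (SD, n = 9, exact permutation p = 0.0117), with injured library 5 wider in the windows by 15.5 bp. The better-ranked 50% of peaks gave -23.5 bp (exact permutation p = 0.00781). Width rises with recurrence, from a median of 203 bp for regions of 1 library elsewhere to 776.5 bp for those of 9. Recurrence is linked to the choice of windows, so the contrast in width is not free of that choice. Values for single-library regions alone are given below.

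The typical peak in the windows ranked above the typical peak elsewhere on the same chromosomes. Median percentiles in the windows were 51.4, 59.3, 56.5, 50.9 and 49.2 in injured and 51.99, 48.6, 54.8 and 58.1 in control libraries. Outside the windows, on the same chromosomes, they were 48.9, 48.6, 47.7, 48.2 and 47.5 in injured and 48.4, 48.9, 49.0 and 48.9 in control libraries. Percentiles refer to the whole list, of which peaks off these chromosomes entered neither side. The medians in the windows of injured library 5 (49.2) and control library 2 (48.6) lay below the middle of that list. The median was higher in the windows in 8 of 9 libraries, all but control library 2, by 4.97 ± 3.82 percentile points (SD, n = 9; exact two-sided sign-flip permutation p = 0.00781, adjusted p = 0.00781). The call was lost in the equal-length lists (0.0693, exact permutation p = 0.953), and with windows shifted by 500 kb (3.1, exact permutation p = 0.184). The sign turned in the better-ranked 50% of peaks (-0.655, exact permutation p = 0.539). Rank also rises with recurrence, so this contrast, like that in width, is not free of the choice.

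By parts of the whole list, the weakest 25% held 21.8% ± 3.32 of the peaks in the windows and 26.04% ± 0.321 of the others on the same chromosomes (SD, n = 9 each). The share was lower in the windows in 8 of 9 libraries, all but injured library 5. The best 25% held 25.95% ± 4.999 of the peaks in the windows and 23.3% ± 0.588 of the others (SD, n = 9 each), higher in the windows in 5 of 9 libraries. The second-best 25% held 27.4% ± 2.17 of the peaks in the windows and 25.1% ± 0.189 of the others (SD, n = 9 each). That share was lower in the windows only in injured library 3. Peaks in the windows were thus short of the weakest 25% in more libraries than they were rich in the best 25%. Among each library's 1000 peaks of best rank, counting those on the 24 chromosomes, the windows held 1.03% ± 0.452, where their share of all peaks was 1.56% ± 0.26 (SD, n = 9 each). Injured libraries 1 to 5 had 10, 14, 3, 6 and 5 such peaks in the windows and control libraries 1 to 4 had 5, 5, 8 and 8. Only in injured library 2 did the windows hold more of the best-ranked peaks than of all peaks.

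At equal recurrence, regions in the windows had the better median rank and the smaller median width for each number of libraries up to 7. Regions detected in 1 library had a median percentile of 34.3 and a median width of 197 bp in the windows, against 30.9 and 203 bp elsewhere. For regions detected in 3 libraries the values were 56.8 and 364 bp in the windows and 47.9 and 412 bp elsewhere. For those of 8 and of 9 libraries the order of ranks was the other way. Regions of 8 libraries were also wider in the windows, with 691 bp against 652.5 bp elsewhere, whereas those of 9 were narrower. Regions of 9 libraries are an example, with 86.1 and 542 bp in the windows and 91.8 and 776.5 bp elsewhere. When width and rank were measured on peaks of single-library regions alone, the windows differed by -7.5 bp in width (exact permutation p = 0.0117) and by 3.19 percentile points in rank (exact permutation p = 0.0703).

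The share of peaks in the windows overlapped between the groups. Injured libraries 1 to 5 had 367, 299, 133, 315 and 221 peaks in them, and control libraries 1 to 4 had 305, 426, 438 and 651. As a share of the peaks on the 24 chromosomes this was 1.57%, 1.48%, 1.1%, 1.73% and 1.62% in injured and 1.22%, 1.6%, 1.86% and 1.84% in control libraries. Injured library 3 was the lowest and control library 3 the highest. The mean was 1.498% ± 0.243 in the injured group (SD, n = 5) and 1.63% ± 0.298 in the control group (SD, n = 4), a difference of -0.131 percentage points. With lists of equal length the means were 1.58% ± 0.293 for the injured group (SD, n = 5) and 1.79% ± 0.354 for the control group (SD, n = 4). These shares rest on the counts that chose the windows and are a description. With each library measured in windows chosen from the other 8, the difference was -0.156 percentage points. It did not exceed the spread between libraries (p = 0.476, exact two-sided permutation, unadjusted). Other libraries of the same group still took part in each choice, so this difference is not wholly free of it.

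**Figure D5:**
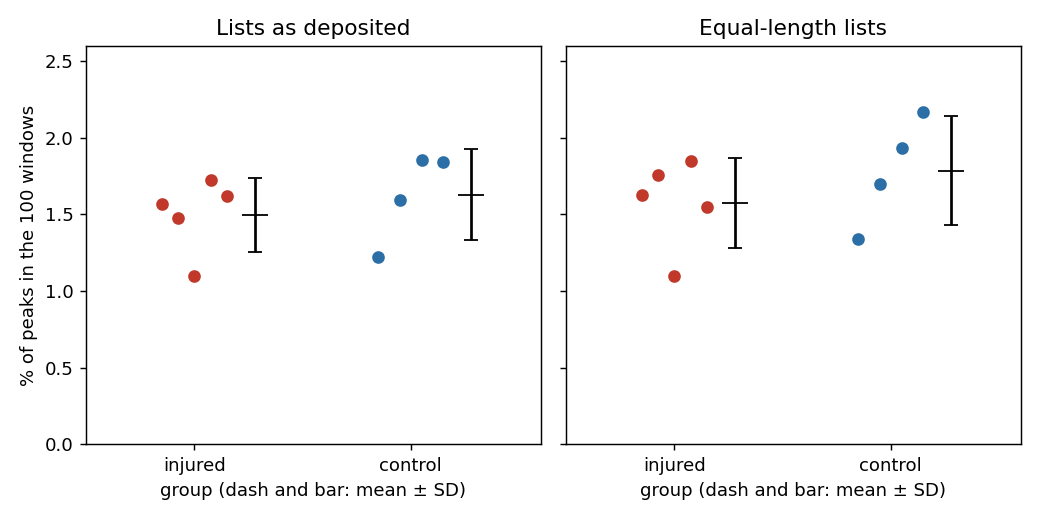
Percentage of a library's peaks on the 24 chromosomes that lay in the 100 windows, for injured (red) and control (blue) libraries, in the lists as deposited (left) and in equal-length lists (right); dots are libraries, dash and bar the mean ± SD. The groups overlap in both panels, with means of 1.498% and 1.63% on the left and 1.58% and 1.79% on the right.

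The contrasts in width and rank did not separate the groups either, with p-values adjusted over 4 comparisons. The difference in width between windows and rest was -11 ± 10.4 bp for the injured group (SD, n = 5) and -6.5 ± 5.45 bp for the control group (SD, n = 4; exact permutation p = 0.484, adjusted p = 0.794). That in rank was 5.28 ± 4.13 percentile points for the injured group (SD, n = 5) and 4.58 ± 3.97 for the control group (SD, n = 4; exact permutation p = 0.794, adjusted p = 0.794). That in the share of recurrent peaks, which is linked to the choice, was 0.609 ± 6.83 percentage points for the injured group (SD, n = 5) and 1.47 ± 1.88 for the control group (SD, n = 4). With 126 assignments the smallest possible p is 0.00794, and these values do not show that the groups are alike.

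The share of a library's peaks in a single window was compared between the groups for all windows of the series with at least 18 peaks, by an exact permutation test with Benjamini-Hochberg adjustment. The same counts had chosen the windows, so their place in that comparison is a description. Of the 93 chosen windows that entered, 0 passed adjustment. The permutation test cannot give a p under 0.00794, so passing would need very many of the tested windows at that floor. The 0 therefore decides little. At an unadjusted p below 0.05 there were 3 (3.23%), against 5.10% of all 2039 windows tested, and all 3 had a lower share in injured libraries, against 3.29% of all windows in that direction and 1.81% in the other. They are named here after their values were seen. At 37 to 38 Mb of chromosome 13 there were 2, 3, 1, 2 and 1 peaks in injured and 5, 5, 7 and 9 in control libraries. At 29 to 30 Mb of chromosome 18 there were 2, 2, 0, 2 and 1 in injured and 4, 4, 3 and 5 in control libraries. In both windows every injured count lay below every control count, but control lists are also longer.

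The remaining window, at 51 to 52 Mb of chromosome 5, had 0, 3, 0, 0 and 0 peaks in injured and 4, 2, 4 and 7 in control libraries. Only injured library 2 had peaks there, more than control library 2. Without injured library 1, 3, 4 or 5 it was no longer among the windows below that threshold, and without control library 2 it was. Without injured library 2 or control library 1, 3 or 4 its sum fell under 18 and it was not tested. With equal-length lists 0 of 54 chosen windows passed an unadjusted p of 0.05, against 4.59% of the series. With covered length in place of peaks 7 of 93 did (7.53%), against 5.69% of the series.

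Single regions were compared by Fisher's exact test on detection over the whole series. Their peaks count toward the sums that chose the windows, so the p-values below describe their place in that comparison. Of the 599 regions of the windows detected in 2 to 7 libraries, 0 passed adjustment over the 44043 tested in the series (lowest adjusted p = 0.753, Benjamini-Hochberg). Fisher's exact test cannot give a p under 0.00794 with 5 and 4 libraries. Passing would need very many of the tested regions at that floor, so the 0 decides little. At an unadjusted p below 0.05 there were 29 (4.84%), against 4.48% in the series. In 28 of them detection was more frequent in control libraries, and in 1 in injured libraries, where the series had 4.27% and 0.213% of its tested regions. More often detected in injured libraries were 118 of the 599 (19.7%) and in control libraries 481 (80.3%), against 23.8% and 76.2% of the series. In equal-length lists the 29 became 11 of 344 (3.2%), against 3.09% of the series. Of these, 2 were in the injured and 9 in the control direction, where the series had 159 and 562 of 23357. Without any 1 of the 9 libraries there were 2 to 11 (0.348% to 1.996%), since fewer libraries give coarser p-values. The series then had 0.519% to 1.55%.

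Detection in every control and no injured library was seen for 2 regions of the windows, and the opposite for 0. In the series 0.121% and 0.00473% of the 126838 regions were of these kinds. On chromosome 11 the region from 33701204 to 33701721 had no peak in the 5 injured libraries and percentiles of 67.95, 70.8, 71.1 and 42.9 in control libraries 1 to 4 (p = 0.00794 by Fisher's exact test, adjusted p = 0.753). In the equal-length lists 3 control libraries kept their peak. On chromosome 18 the region from 39561838 to 39562443 had no peak in injured libraries and percentiles of 44.6, 53.0, 53.3 and 54.4 in the control libraries (p = 0.00794 by the exact test, adjusted p = 0.753). There 1 control library kept its peak at equal length.

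On chromosome 5 the region from 52057856 to 52058244 was detected in 1 injured library, number 2, at percentile 94.1, and in 4 control libraries at 88.7, 43.0, 91.2 and 55.2 (p = 0.0476 by Fisher's exact test, adjusted p = 0.753). At equal length it was detected in 1 injured and 2 control libraries (exact p = 0.524), and without any 1 library other than injured library 2 the exact p was 0.143. It lies in the window beside that of 51 to 52 Mb on the same chromosome, in which injured library 2 was likewise the only injured library with peaks.

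First in the opposite direction was a region of chromosome 24 from 27660358 to 27660703. It had percentiles of 72.3, 39.97, 6.4 and 14.0 in injured libraries 1, 2, 3 and 5, with no peak in injured library 4 or in a control library (p = 0.0476 by Fisher's exact test, adjusted p = 0.753). All 4 injured peaks stayed at equal length, and without any 1 library other than injured library 4 the exact p was 0.143. A region of chromosome 23 from 7206233 to 7206834 was detected in injured libraries 1, 2 and 5 at percentiles of 98.2, 99.6 and 59.3 and in no control library (p = 0.167 by Fisher's exact test, adjusted p = 0.753). A second one on that chromosome, from 5000655 to 5000882, was detected in injured libraries 2, 3 and 4 at 76.5, 93.8 and 67.5 and in no control library (p = 0.167 by the exact test, adjusted p = 0.753). The region at 7206233 lies in the run of 3 sparse windows, and in injured library 2 it was among the best 1% of all peaks. Median rank decided which regions of equal p and equal difference in detection were named, so its high rank is no separate result.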

How the data were processed

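The authors deposited 1 peak list per library, with positions and a peak score. Per the submitters' processing notes, the build was GRCz11, and the tools named are MACS2 and Bowtie2, Picard and SAMtools, bedtools, deepTools, Trim Galore, ChIPseeker, DiffBind and DESeq2. No source used here gives versions, settings, read shifting or the threshold for peaks. In the deposited lists the score starts at 13, and its scale is not stated, so it served only for ranks within a list, ties being ordered by width and position.

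Windows, regions and tests were computed with Python 3.11.15, numpy 2.4.6, pandas 2.3.3 and scipy 1.17.1. Group differences were tested by exact permutation over 126 assignments, contrasts within libraries by exact sign-flip over 512, regions by Fisher's exact test over the whole series, and windows with at least 18 peaks by exact permutation, each with Benjamini-Hochberg adjustment at 0.05. The tests of regions and of windows were tested on simulated data by their unadjusted p-values, without the adjustment. The permutation test of per-library values and the sign-flip test were only compared with those of scipy on a single set of random values. The windows and measures were chosen with earlier results of these data known. Windows and regions were named by rule: the 10 emptiest, runs of at least 3, the places around the threshold, the 8 best-ranked regions of 9 libraries, the 5 widest, and the first 3 by Fisher's p in each direction. Ties in Fisher's p were ordered by the difference in detection and then by the better median rank. Alternatives were equal-length lists, the better-ranked 50% of peaks, other window sets, a 50% overlap, a replicate block and leaving out each library.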

Additional observations from a re-analysis of the deposited data

How the results depend on the processing

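The difference between groups in the share of peaks was negative under 17 alternatives, with a range of -0.267 to -0.0301 percentage points when a library was left out. These shares rest on the counts that chose the windows and are a description. With windows chosen from the other 8 libraries, a library's own counts had no part in its share. The other libraries of its group still did, so that group difference is not wholly free of the choice. It was not past the threshold. The mean difference in width kept its direction throughout (-10 to -7.13 bp without 1 library) and lost the call with 50 windows (-4 bp). Rank stayed called without any 1 library (4.25 to 5.62 percentile points). It lost the call in equal-length lists (0.0693), with windows shifted by 500 kb (3.1) and in single-library regions (3.19). In the better-ranked 50% of peaks it changed sign (-0.655). The lists of better-ranked peaks leave out the weak peaks by construction, and the cause of any of these changes was not tested.

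After adjustment 0 member regions and 0 windows passed under every alternative run. With the smallest p that so few libraries allow, this was nearly fixed by the design. Member regions at an unadjusted p below 0.05 numbered 29 (4.84%, series 4.48%). They numbered 11 in equal-length lists (3.2%, series 3.09%) and 17 in the better-ranked 50% (5.12%, series 4.94%). With an overlap of at least 50% of the shorter region there were 24 (4.24%, series 4.39%). Without 1 library there were 2 to 11 (0.348% to 1.996%, series 0.519% to 1.55%), where p moves in coarser steps. Windows at that level numbered 3 (3.23%, series 5.1%). They numbered 0 in equal-length lists (series 4.59%) and 7 by covered length (7.53%, series 5.69%). In the better-ranked 50% of peaks there were 3 of 46 (6.52%, series 5.82%). Of these, 1 was in the injured and 2 in the control direction, where the series had 30 and 65 of 1631. Without 1 library there were 2 to 4 (2.17% to 4.44%, series 2.98% to 4.8%). With the replicate block there were 0, which was fixed by the design, since 4 pairs allow no p under 0.125.

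Replicate numbers 1 to 4 occur in both groups. Correlations of same-numbered libraries' deviations were -0.13, -0.286, -0.228 and 0.0711, against -0.188 to 0.275 for libraries of unlike number. So few pairs cannot show whether equal numbers were paired, and the labels do not say. With the replicate block the difference in share, likewise a description, was -0.162 percentage points, and its smallest possible p is 0.125. Depth per library is unknown, which limits every count of sites not detected.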

Other observations

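Between neighbouring merged regions lay stretches without a peak in any library. Their median length was 25.4 kb in the chosen windows and 4.43 kb in the other interior windows, a description that follows from the choice. Of the 50 longest on the 24 chromosomes 25 were centred in a chosen window, and of the 10 longest 5 were. The longest was on chromosome 6 from 24656742 to 25246520, 589.8 kb, and the next on chromosome 23 from 7357138 to 7942598, 585.5 kb, both in chosen windows. The third, on chromosome 18 from 8709149 to 9245014, 535.9 kb, was centred in a window that was not chosen. These stretches were named after their lengths were seen, and whether any holds a gap in the assembly was not examined.

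Regions of the windows detected in exactly 2 libraries numbered 282. Of these, 30 (10.6%) were shared by 2 injured libraries, 160 (56.7%) by an injured and a control library and 92 (32.6%) by 2 control libraries, where 10, 20 and 6 pairs are possible. Elsewhere on the same chromosomes the shares were 14.6%, 53.5% and 31.9%. Pairs of the longer control lists are over-represented in both, relative to the number of pairs, and the difference between windows and rest was not tested.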
